A study of Danio rerio with 30 samples.

Results

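Adult zebrafish exposed to copper at the concentration labelled 0.6, the highest of the study, were compared with unexposed controls. The comparison took the 3 arrays labelled with copper (Cu) at 0.6 and chlorpyrifos (CPF) at 0 and the 3 arrays labelled 0 for both, so 6 of the 30 arrays of the series. All fish were AB strain adults aged 1 year, and the treatment label of the controls gives 0 for both chemicals and names nothing else. The unit of the concentrations and the length of exposure are not given in the sources used here, and nothing in the labels says whether an array holds 1 fish or a pool. One label gives the olfactory rosettes alone as the tissue, and another lists rosettes together with bulbs and telencephalons. Nothing states that the replicates of a group came from separate tanks or fish, so the spread that the p-values rest on may be technical.

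Fish smell through the olfactory rosettes, folded epithelia in the nasal cavity whose sensory neurons are in direct contact with the water. Each sensory neuron carries odorant receptors on cilia or microvilli, signals through G proteins and calcium, sends its axon to the olfactory bulb, and is replaced throughout life from precursor cells in the epithelium. Dissolved copper is a well-known toxicant of these neurons in fish. Cells handle copper with import and export transporters and with metal-binding metallothioneins, and answer damage with heat shock, antioxidant, inflammatory and lysosomal genes.

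The 6 arrays had medians of 5.57 to 5.63 (log2), and 9885 to 10416 of the probe sets on an array exceeded 4. Correlations between arrays were 0.980 to 0.985 within the groups and 0.972 to 0.982 between them. On the first principal component, with 13.51% of the variance of the 30 arrays, the groups overlapped. The Cu 0.6 arrays lay there at 0.82, 4.05 and −5.93 and the controls at −27.65, −16.29 and −4.87. Control replicate 1 was the lowest of the 30 arrays on it. On the second, with 12.03% of the variance, the Cu 0.6 arrays lay at 11.3, 7.40 and 17.4 and the controls at 1.895, −3.40 and −3.84. The dates in the sample titles gave 3 batches: Cu 0.6 replicates 1 and 3 and control replicate 3 lay in title batch 2, Cu 0.6 replicate 2 and control replicate 1 in title batch 3, and control replicate 2 in title batch 1. The hybridization spike BioB read 6.15 to 6.53 on the Cu 0.6 arrays and 7.22, 7.31 and 6.19 on the controls, and the part of this in the results was not tested. For actin, the control probe set at the end of the transcript exceeded that at its start by 3.26 on control replicate 1, the highest of the 30 arrays. The difference was 2.69 and 2.52 on the other controls and 2.58 to 2.75 on the Cu 0.6 arrays. For GAPDH it was 0.73 to 0.97 over the 6 arrays, with 0.76 on control replicate 1. The part of this was not tested either.

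With copper at 0.6, the 3 measured markers of olfactory sensory neurons were lower, as were 4 of 25 genes of calcium-binding proteins and 6 of 32 of cytokine feedback and inflammation. The gene s100z counts both as a marker of these neurons and as a gene of calcium-binding proteins. The genes that were higher included 5 of 44 of the lysosome and 3 of 21 of neuropeptides and hormones. The decreases were the larger changes among the 171 probe sets that passed the limma threshold given next. Of these, 54 fell by more than 1 on the log2 scale, where 1 is a 2-fold difference, and 7 rose by more than 1. Of 10531 probe sets tested, 171 (1.62%) passed a limma adjusted p of 0.05, with 72 higher (0.684%) and 99 lower (0.94%). At an unadjusted p under 0.05 there were 1580 (15%). Counted once per gene, 116 of 6448 genes passed (1.8%), with 54 higher (0.837%) and 62 lower (0.962%). These are the shares to set beside the count of each gene list below. The median change was 0.05 over all probe sets and 0.07 over genes. In 169 of the 171 the deposited values of the 3 Cu 0.6 arrays all lay on one side of the 3 controls, which was so for 17.8% of all tested probe sets. The 171 were called on these same arrays, so their share is largely set by that choice and is no separate support. The same holds below wherever the groups are said not to overlap in a gene that passed. In tissue RNA, fewer cells of a type and less RNA per cell cannot be told apart.

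The count depended on single arrays and on the title batches. It was 59 without control replicate 1, 68 without Cu 0.6 replicate 2, and 103 and 108 without Cu 0.6 replicates 1 and 3, and 36 probe sets passed without the arrays of title batch 3, 27 of them lower. Across the 6 leave-one-out fits, each without 1 array of the 2 groups, 46 probe sets passed every time, 38 lower and 8 higher.

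**Figure D1:**
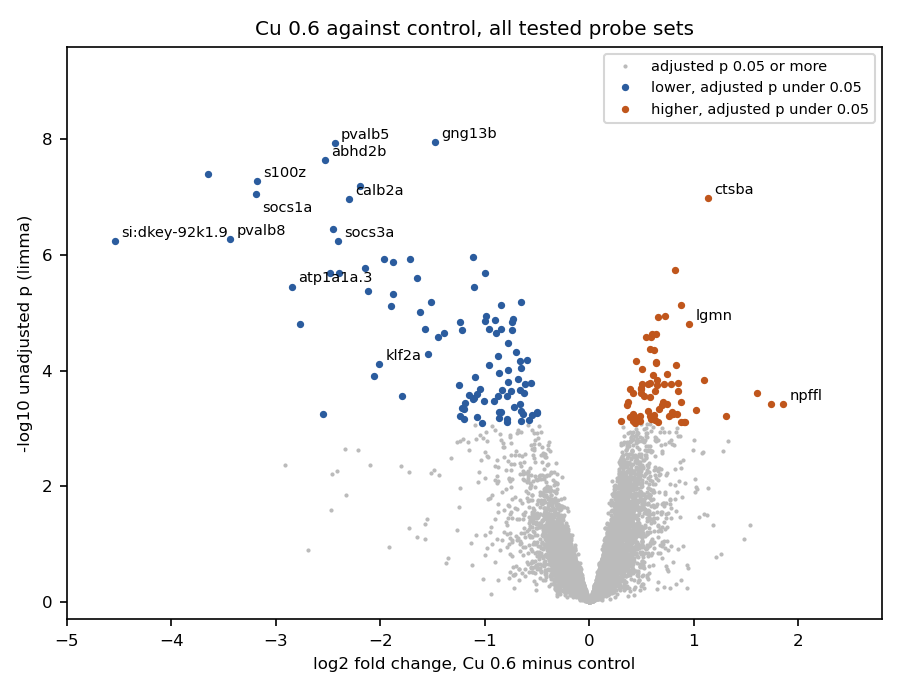
Each point is 1 of the 10531 tested probe sets, with the log2 fold change of Cu 0.6 against control on the x axis and −log10 of the unadjusted limma p on the y axis. The 99 lower probe sets (blue) reach −4.54, while the 72 higher ones (orange) end at 1.85.

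Marker genes of olfactory sensory neurons fell together. ompb encodes the olfactory marker protein, which is abundant in mature olfactory sensory neurons. Its deposited log2 values were 3.56, 3.89 and 3.60 on the Cu 0.6 arrays and 6.28, 5.50 and 6.69 on the controls. Every Cu 0.6 array was thus below every control, and below the 4 used as the filter on low values. The fitted change was −2.48 ± 0.39 (SE, n = 3 arrays a group; limma adjusted p = 9.99e-04), on deposited values that were near the lower end of the array's range with copper. Within title batch 2 it was −3.11, and within title batch 3 it was −2.39.

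gng13b, the G protein gamma subunit that takes part in olfactory signalling, read 9.72, 9.97 and 9.64 with copper against 11.41, 10.95 and 11.33 without. The groups did not overlap, and the change of −1.47 ± 0.17 had one of the 2 smallest limma adjusted p-values among the named genes (6.01e-05). s100z, a member of the S100 family of calcium-binding proteins, read 8.38, 8.13 and 8.85 against 11.74, 11.36 and 11.70. It changed by −3.18 ± 0.39, a 9.04-fold decrease (limma adjusted p = 1.12e-04). The 3 genes were the only ones measured of 15 markers of these neurons, and their summed level was 10.22 to 10.34 on the Cu 0.6 arrays and 12.18 to 12.60 on the controls. All 3 passed with title batch 3 left out and in each leave-one-out fit.

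Of 11 measured genes of olfactory transduction, 4 fell and 0 rose (36.4%), with a median of −0.00. Of the 4, ompb, gng13b and s100z are the neuron markers above, so this count is not separate from theirs. The fourth was calb2a, described below, which like s100z also counts as a calcium-binding protein gene. gnb1a, a G protein beta subunit, was measured by a pair of probe sets: one read 10.33, 10.33 and 10.25 with copper against 10.83, 10.96 and 10.82 without, at −0.56 ± 0.16 (adjusted p = 0.074). The other fell by 0.74 ± 0.17 (limma adjusted p = 0.0237). Neither probe set of gnb1a overlapped between the groups. The G protein alpha subunits gnai1 and gnao1a, which neurons use widely, were at −0.00 and 0.20.

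Most odorant receptor transcripts were near the lower end of the array's range. Of 23 receptor genes on the array, 6 exceeded the filter, and 0 of the 6 passed in either direction, with a median change of −0.47. or42c1 read 3.68, 3.52 and 3.31 with copper against 4.202, 4.07 and 4.80 without, a change of −0.91 ± 0.29 (limma adjusted p = 0.115). or42c4 read 2.87, 2.88 and 2.72 against 3.06, 3.83 and 4.304, at −1.0002 ± 0.34 (adjusted p = 0.139). or70a2 overlapped between the groups at 7.15, 6.70 and 7.31 against 7.24, 7.58 and 7.05 (−0.21 ± 0.33).

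The 17 receptor genes that the filter left out were at or below 4 on all 3 Cu 0.6 arrays, which the filter itself largely sets. On the controls they were also at or below 4, except for 1 value each of or30by1, or30bx1, or42e2 and or91a3. Among all 23 receptors the deposited values of Cu 0.6 lay wholly below the controls in 15 and wholly above in 0. The share wholly below was 6.13% over all probe sets on the array and 5.47% over those not tested. In all of the 15 but or30bw1 the Cu 0.6 values were below 4, near the lower end of the range. Some of the gaps were small, as in or42c2, at 3.11, 3.12 and 2.97 with copper against 3.44, 3.15 and 3.24 without. or30bx1 was among the untested ones, at 2.12, 2.11 and 2.01 with copper against 3.61, 3.51 and 5.13 without. With no filter, 3 of the 23 passed and all 3 were lower, or30bx1 (−2.08), or70b1 (−0.49) and or42c5 (−0.35), beside 0.619% of all probe sets that were lower and passed in that fit. Their Cu 0.6 values were all below 4. or70b1 and or42c5 exceeded 4 on 0 of the 30 arrays, so their controls were below it too, and or30bx1 exceeded it on 1. Related receptor genes may share signal on one probe set, which was not tested.

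**Figure D2:**
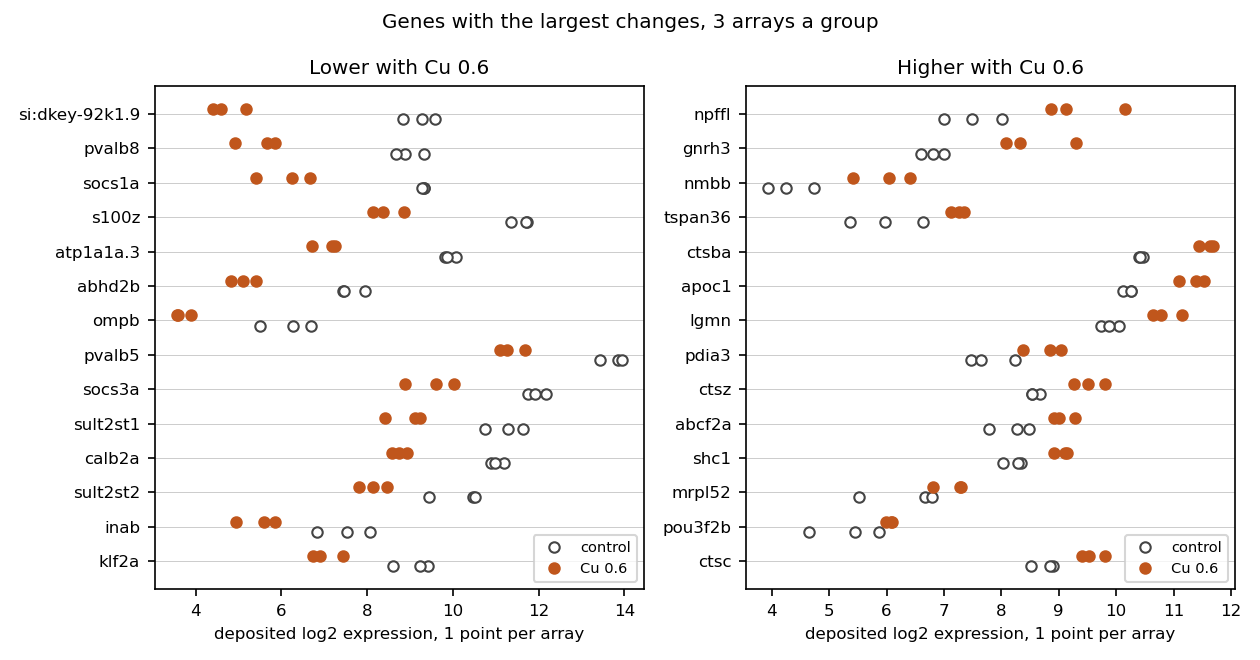
Deposited log2 expression (x axis, 1 point per array) of the 14 genes with the largest decreases and the 14 with the largest increases among those that passed, with control arrays open and Cu 0.6 arrays filled. The genes were chosen for groups that do not overlap once batch is removed, so the gap between the groups is set by that choice. The decreases span −4.54 to −2.01 and the increases end at 1.85.

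Calcium-binding proteins gave some of the largest decreases, though most of the family did not pass. Of 25 measured, 4 fell and 0 rose (16%), and the median of the list was 0.10, so these genes stood apart from the rest of the list. Parvalbumins are small calcium buffers. pvalb5 read 11.26, 11.1003 and 11.69 with copper and 13.85, 13.43 and 13.94 in controls, and fell by 2.44 ± 0.27 (limma adjusted p = 6.01e-05). pvalb8 read 5.68, 4.93 and 5.85 against 9.32, 8.89 and 8.68, and fell by 3.44 ± 0.49, or 10.8-fold (limma adjusted p = 4.63e-04). In both genes the groups were apart by more than 1 log2 unit. The other parvalbumins measured, pvalb6 and pvalb7, were at 0.03 and 0.04.

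calb2a encodes calretinin, a calcium-binding protein present in olfactory sensory neurons and in neurons of the brain. It read 8.59, 8.75 and 8.93 with copper against 11.19, 10.88 and 10.97 without, with no overlap, and fell by 2.30 ± 0.30 (limma adjusted p = 1.27e-04). All 4 genes, s100z among them, passed in every leave-one-out fit and without title batch 3. pvalb8 also stood in the list of epithelium and skin markers, of which 44 were measured and 2 fell, the other being the haem-binding protein gene soul2 at −1.03 ± 0.26. The call of soul2 (limma adjusted p = 0.0491) was kept in 1 of the 6 leave-one-out fits. It was lost with no batch term and without title batch 3 (limma adjusted p = 0.447). The summed level of the epithelium and skin list was 15.75 to 16.01 with copper and 15.82 to 16.20 without, so it overlapped.

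Markers of the brain regions named in the labels were measured next to these. tbr1b, a transcription factor of excitatory forebrain neurons, ranged from 10.37 to 10.75 with copper and from 10.29 to 10.56 in controls. emx3, a factor of the dorsal telencephalon, ranged from 7.26 to 7.6001 and from 7.33 to 7.53, and gad1b, the enzyme that makes the transmitter GABA, from 10.90 to 11.30 and from 10.67 to 11.09. These 3 genes overlapped between the groups and were well above the filter on all 6 arrays. Of 23 measured bulb and telencephalon markers, 2 fell, calb2a and inab, and 0 rose (8.7%), with a median of 0.11. In those 2 the Cu 0.6 arrays lay wholly below the controls (6.28% of all tested genes), and in 3 they lay wholly above (13.8%). The 3 were the forebrain transcription factors neurod6a, at 11.42 to 11.50 against 11.13 to 11.34, dlx2a, at 7.45 to 7.71 against 6.41 to 7.41, and dlx5a, at 8.57 to 8.88 against 8.32 to 8.51, and none of these passed (adjusted p = 0.499, 0.371 and 0.417). inab, an intermediate filament protein of neurons, read 5.60, 4.94 and 5.86 against 8.08, 6.83 and 7.53, at −2.06 ± 0.44 (limma adjusted p = 0.0169). Its call ended without Cu 0.6 replicate 2, control replicate 1 or control replicate 3 (adjusted p up to 0.134).

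Of 32 measured genes of cytokine feedback and inflammation, 6 fell and 0 rose (18.8%). The list as a whole was balanced, with 16 positive and 16 negative changes and a median of −0.01. socs1a and socs3a encode suppressors that block JAK kinases after a cytokine signal. socs1a read 6.67, 5.41 and 6.25 with copper against 9.32, 9.32 and 9.28 without, so the controls were nearly identical and each Cu 0.6 array lay far below them. It fell by 3.19 ± 0.40 (limma adjusted p = 1.27e-04), and its other probe set fell by 3.65 ± 0.44.

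socs3a read 10.04, 8.88 and 9.62 against 12.16, 11.74 and 11.91, a change of −2.40 ± 0.34 (limma adjusted p = 4.63e-04). In both genes Cu 0.6 replicate 2 gave the lowest value. cisha encodes another inhibitor of this family, which acts on STAT signalling, and read 6.02, 5.69 and 5.997 against 7.61, 7.30 and 7.19 (−1.45 ± 0.27, limma adjusted p = 0.00511). nfkbiab, which encodes an inhibitor that holds NF-kappaB in the cytoplasm, read 9.76, 9.35 and 9.40 against 11.31, 10.83 and 10.87, and fell by 1.52 ± 0.26 (limma adjusted p = 0.00234). Its sister gene nfkbiaa was at −1.102 ± 0.26 (limma adjusted p = 0.0284). The chemokine gene ccl19a.1 was lower by −1.15 ± 0.26 (adjusted p = 0.0264) and passed in 0 of the 6 leave-one-out fits. Neither stat3 (−0.04) nor socs3b (−0.90, adjusted p = 0.584) passed.

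Without the arrays of title batch 3, 2 of the 6 calls remained, those of socs1a and socs3a. For cisha the adjusted p was then 0.171, and it also ended without Cu 0.6 replicate 2 or control replicate 1. For nfkbiab the adjusted p without title batch 3 was 0.0726.

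Immediate early genes are those that cells switch on within minutes of a stimulus. Of 49 measured, 7 fell and 0 rose (14.3%), 40 had a negative change, and the median was −0.25. klf2a, a Krüppel-like transcription factor, read 7.44, 6.74 and 6.90 with copper against 9.43, 9.23 and 8.60 without (−2.01 ± 0.41, limma adjusted p = 0.0121). gadd45ba, a stress and growth-arrest gene, read 7.74, 7.98 and 7.62 against 8.93, 8.98 and 8.87, with no overlap (−1.12 ± 0.17, limma adjusted p = 7.86e-04). The remaining calls were cebpd, a C/EBP transcription factor (−1.22 ± 0.22), dusp1, a phosphatase that turns off MAP kinases (−1.18 ± 0.28), btg2, which restrains proliferation (−1.11 ± 0.26), mcl1b, an anti-apoptotic BCL2 relative (−0.84 ± 0.19), and gadd45ab (−0.78 ± 0.15).

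Classic members of this class did not pass: fosab was at −0.74 (adjusted p = 0.203), egr1 at −0.18 and jun at 0.00. Both gadd45 genes passed in all 6 leave-one-out fits and without title batch 3, where they were the 2 remaining calls of the list. The others were less stable: klf2a and cebpd lost their calls without Cu 0.6 replicate 2 or control replicate 1, mcl1b passed in 2 of the 6 leave-one-out fits, and dusp1 and btg2 in 1.

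A pair of sulfotransferase genes also fell. sult2st1 and sult2st2 encode cytosolic sulfotransferases, enzymes that add sulfate to steroids and foreign compounds. sult2st1 read 9.12, 8.41 and 9.24 with copper against 11.29, 10.75 and 11.63 without (−2.39 ± 0.37, limma adjusted p = 9.99e-04). sult2st2 read 8.14, 7.82 and 8.47 against 10.46, 9.45 and 10.52 (−2.11 ± 0.35, limma adjusted p = 0.00172). The groups did not overlap in either gene, and these were the only 2 of 30 measured genes of sulfotransferases and xenobiotic metabolism that passed (6.67%, median −0.15). Both passed in all 6 leave-one-out fits, and without title batch 3 neither did (adjusted p = 0.0709 and 0.112).

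Of 27 measured ion transport genes 1 fell and 0 rose (3.7%, beside 1.8% of all tested genes), with a median of −0.02. It was atp1a1a.3, which encodes an alpha subunit of the sodium pump, and in zebrafish belongs to a cluster of closely related copies. It read 6.71, 7.18 and 7.24 against 10.06, 9.82 and 9.87, and fell by 2.84 ± 0.46 (limma adjusted p = 0.00153), with the same size within title batch 2 (−2.89) and title batch 3 (−2.88). Its neighbour atp1a1a.2 read 2.48, 2.67 and 3.64 against 5.32, 5.03 and 5.54, without overlap, but at −2.34 ± 0.68 did not pass (adjusted p = 0.0824). Whether a probe set can separate the copies was not tested. Sodium pump genes used broadly in neurons, atp1a3a and atp1a3b, were at −0.02 and 0.48 and did not pass. Of 7 measured ionocyte markers 1 fell and passed, atp1a1a.3 itself. The list's median was −0.28, with 6 members negative and 1 positive. The Cu 0.6 arrays lay wholly below the controls in 3 (6.28% of all tested genes) and wholly above in 0 (13.8%). The summed level of the list was 12.52 to 13.15 with copper and 12.85 to 12.97 without.

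The largest decrease among the tested probe sets belonged to si:dkey-92k1.9, a gene named only by its clone. It read 4.397, 4.59 and 5.17 with copper and 9.27, 8.83 and 9.58 in controls (−4.54 ± 0.65, limma adjusted p = 4.63e-04), a 23.2-fold difference. abhd2b, an alpha/beta hydrolase gene, read 5.40, 4.84 and 5.103 against 7.43, 7.46 and 7.95 (−2.53 ± 0.30, limma adjusted p = 7.87e-05). Neither overlapped, which the choice of these genes largely sets, and both passed in every leave-one-out fit.

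**Figure D3:**
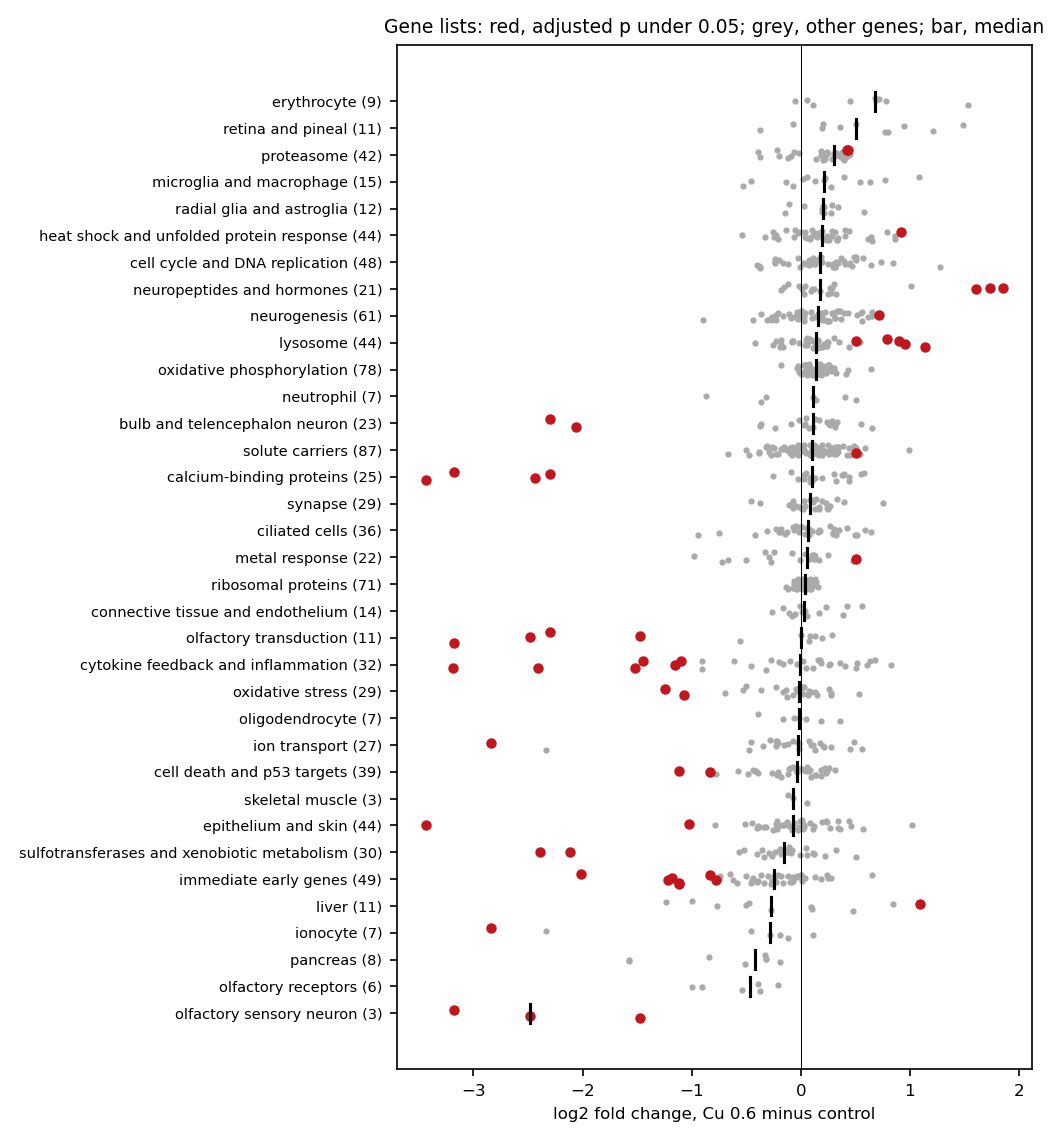
Log2 fold change of Cu 0.6 against control (x axis) for the measured genes of each list (number in brackets), 1 dot per gene, red where the limma adjusted p was under 0.05, with a bar at the median. Most lists hold no red dot or a few. The 3 olfactory sensory neuron markers lie between −3.18 and −1.47, and the red dots of the lysosome list lie between 0.51 and 1.14.

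Among the increases, 5 of 44 measured lysosome genes rose and 0 fell (11.4%), with a median of 0.14, and all 5 encode proteases. In 6 of the 44 the Cu 0.6 arrays lay wholly above the controls (13.8% of all tested genes), and in 1 wholly below (6.28%). ctsba encodes cathepsin B, a cysteine protease of the lysosome. It read 11.69, 11.45 and 11.64 with copper against 10.39, 10.46 and 10.41 without, and rose by 1.14 ± 0.15, or 2.204-fold (limma adjusted p = 1.27e-04). Every Cu 0.6 array exceeded every control, and the change was 1.26 and 1.06 within title batches 2 and 3. lgmn encodes legumain, an asparagine-specific protease, and read 11.15, 10.64 and 10.78 against 9.73, 10.05 and 9.88 (0.96 ± 0.17, limma adjusted p = 0.00386).

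The other 3 were the cathepsin genes ctsz (0.90 ± 0.23), ctsc (0.79 ± 0.20) and ctsd (0.51 ± 0.11). ctsz and ctsc passed in 0 of the 6 leave-one-out fits and ctsd in 3, and without title batch 3 ctsba alone remained (lgmn, adjusted p = 0.0548). Lysosomal membrane and proton pump genes lay closer to 0, with lamp2 at −0.01, lamp1a at 0.22 and atp6v1h at 0.06, and none of those passed. Macrophages and microglia are rich in these proteases. Of 15 measured markers of these cells 0 passed, with a median of 0.21, and their summed level was 15.099 to 15.25 with copper and 15.34 to 15.38 without, so the median and the sum differed in direction. In 6 of the 15 the Cu 0.6 arrays lay wholly above the controls (13.8% of all tested genes), and in 2 wholly below (6.28%). The part of these cells in the rise of the proteases was not tested.

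Of 21 measured genes of neuropeptides and hormones, 3 rose and 0 fell (14.3%), with a median of 0.17. gnrh3 encodes the gonadotropin-releasing hormone that zebrafish make in the terminal nerve and the preoptic area, and read 8.33, 9.31 and 8.08 with copper against 6.99, 6.81 and 6.603 without (1.74 ± 0.41, limma adjusted p = 0.0325). npffl, a gene of the neuropeptide FF family, read 9.13, 10.16 and 8.86 against 7.49, 8.01 and 6.999 (1.85 ± 0.44, limma adjusted p = 0.0326). In both, Cu 0.6 replicate 2 was the highest array. nmbb, which encodes a neuromedin B, read 6.04, 6.41 and 5.42 against 4.25, 3.93 and 4.74 (1.60 ± 0.37, limma adjusted p = 0.0252).

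None of the 3 passed without title batch 3 (adjusted p = 0.266 to 0.382) or without Cu 0.6 replicate 1 or 2, and they passed in 1 or 2 of the 6 leave-one-out fits. The other probe set of gnrh3 was at 0.48 ± 0.38 (adjusted p = 0.598). tac3b, a tachykinin gene, was at 1.01 ± 0.37 (adjusted p = 0.181), and npy at −0.01.

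Further increases were scattered over roles. apoc1, an apolipoprotein gene, read 11.53, 11.38 and 11.101 with copper against 10.25, 10.12 and 10.27 without (1.097 ± 0.24, limma adjusted p = 0.0194). It passed in 1 of the 6 leave-one-out fits and not without title batch 3 (limma adjusted p = 0.190). It is also 1 of 11 measured liver markers, of which it alone passed. Their median was −0.27, and their summed level was 12.77 to 13.13 with copper and 12.39 to 12.69 without. The median and the sum differ in direction, and the sum includes apoc1 itself, so it is not separate from the rise of apoc1. The part of liver cells in that rise was not tested. abcf2a, an ATP-binding cassette protein gene without membrane spans, read 8.91, 9.0005 and 9.28 against 7.79, 8.27 and 8.49 (0.87 ± 0.15, limma adjusted p = 0.00247) and passed in all 6 leave-one-out fits.

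pdia3, a disulfide isomerase of the endoplasmic reticulum (0.92 ± 0.23), shc1, an adaptor of receptor tyrosine kinases (0.83 ± 0.17), pou3f2b, a neural POU transcription factor (0.79 ± 0.19), mrpl52, a mitochondrial ribosomal protein (0.80 ± 0.20), and tspan36, a tetraspanin (1.30 ± 0.33), passed in the fit and in 1 to 4 of the 6 leave-one-out fits. For mrpl52 control replicate 1 read 5.52 beside 6.66 and 6.79, and for pou3f2b it read 4.64 beside 5.86 and 5.45. The neural progenitor factor sox3 was at 0.72 ± 0.16 (limma adjusted p = 0.0205), and its other probe set was at 0.49 (adjusted p = 0.115). It passed in 2 of the 6 leave-one-out fits and not without title batch 3 (adjusted p = 0.259). Of 61 neurogenesis genes it alone passed (1.64%, near the 1.8% of all tested genes).

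Of 42 measured proteasome subunits 2 rose and 0 fell (4.76%, beside 1.8% of all tested genes). They were the core subunits psma5 (0.42 ± 0.11) and psmb5 (0.44 ± 0.11). The list's median was 0.30, 34 members were positive, and in 28 the Cu 0.6 arrays lay wholly above the controls, against 13.8% of all tested genes. psma5 and psmb5 passed in 0 of the 6 leave-one-out fits and with quantile normalization neither did.

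Of 22 measured genes of copper and metal handling, 1 rose and 0 fell (4.55%, beside 1.8% of all tested genes), with a median of 0.05. The one was slc30a7, a zinc transporter of the secretory pathway, at 8.50, 8.45 and 8.50 with copper against 7.98, 7.97 and 7.98 without. The groups did not overlap and the replicates were close, but the rise of 0.50 ± 0.11 (limma adjusted p = 0.0205) passed in 0 of the 6 leave-one-out fits and not with quantile normalization. slc31a1, the copper importer, read 8.24, 7.91 and 8.05 against 8.18, 8.23 and 8.47 (−0.25 ± 0.11, adjusted p = 0.281). mtf1, the metal-sensing transcription factor, was at 0.10, and the copper chaperone gene cox17 at −0.33. The metallothionein gene mt2 and the copper pump gene atp7a were not analysed here.

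The heat-inducible chaperone gene hsp70.3 varied widely within both groups. It read 5.27, 6.22 and 7.52 with copper and 5.06, 7.62 and 4.63 in controls, so the groups overlapped across more than 2 log2 units (0.66 ± 0.87, adjusted p = 0.775). The constitutive chaperone hspa8 was steady at 13.14, 13.07 and 13.18 against 13.08, 13.08 and 13.06. Of 44 measured heat shock and unfolded protein response genes 1 passed, pdia3 (2.27%, near the 1.8% of all tested genes). The median of the list was 0.19, with 33 changes positive and 11 negative. In 14 genes the Cu 0.6 arrays lay wholly above the controls (13.8% of all tested genes), and in 3 wholly below (6.28%). Among the 14, the chaperone gene hspa14 read 7.49, 6.99 and 7.26 with copper against 5.54, 6.70 and 6.98 without. Its change of 0.86 ± 0.24 did not pass (adjusted p = 0.0653).

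Antioxidant genes gave 2 decreases and 0 increases among 29 measured (6.9%, median −0.01). nqo1, a quinone reductase, read 9.44, 9.35 and 9.56 against 10.70, 10.60 and 10.72 (−1.24 ± 0.27, limma adjusted p = 0.0205). nfe2l2a encodes Nrf2, the transcription factor that controls nqo1 among other antioxidant genes, and was at −1.07 ± 0.25 (limma adjusted p = 0.0259). Neither gene overlapped between the groups, and they passed in 1 and 2 of the 6 leave-one-out fits. Catalase (cat, −0.01), sod1 (−0.16) and gclc (−0.12) did not pass. The acetylcholinesterase gene ache, the target of CPF, read 7.11, 7.45 and 7.13 with copper and 7.22, 6.50 and 7.35 without (0.19 ± 0.29, adjusted p = 0.806).

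Among the other lists, 0 genes passed of 48 in cell cycle and DNA replication (median 0.18), 78 in oxidative phosphorylation (0.14), 71 ribosomal proteins (0.04) and 29 in synapse (0.09). In these lists, in that order, the Cu 0.6 arrays lay wholly above the controls in 14, 25, 4 and 0 genes (13.8% of all tested genes). They lay wholly below in 1, 0, 1 and 2 (6.28%). Markers of other cell types were read beside these results. Haemoglobin genes hbaa1 (0.69 ± 0.35) and hbba2 (0.78 ± 0.47) did not pass, and the summed level of 9 erythrocyte markers was 13.53 to 14.43 with copper and 13.28 to 13.48 without. Of 11 retina and pineal markers 0 passed, with summed levels of 10.52 to 12.33 and 9.50 to 10.67. All 8 measured pancreas markers were negative and 0 passed. Their summed level was 7.88 to 7.92 with copper and 8.69 to 8.92 without, led by prss1 (trypsin) at 6.26, 6.17 and 6.71 against 7.97, 7.84 and 7.95. The part of these differences in the results was not tested.

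Of the 14 largest decreases and the 14 largest increases, the calls on the decreases were the more often kept. Without title batch 3, 10 of the 14 decreases and 1 of the 14 increases, ctsba, still passed. Of the decreases, 12 passed in all 6 leave-one-out fits, the exceptions being inab and klf2a, and of the increases 3 did, ctsba, lgmn and abcf2a. The fit without title batch 3 also lost an array of each group, so a batch difference and fewer arrays cannot be told apart there.

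**Figure D4:**
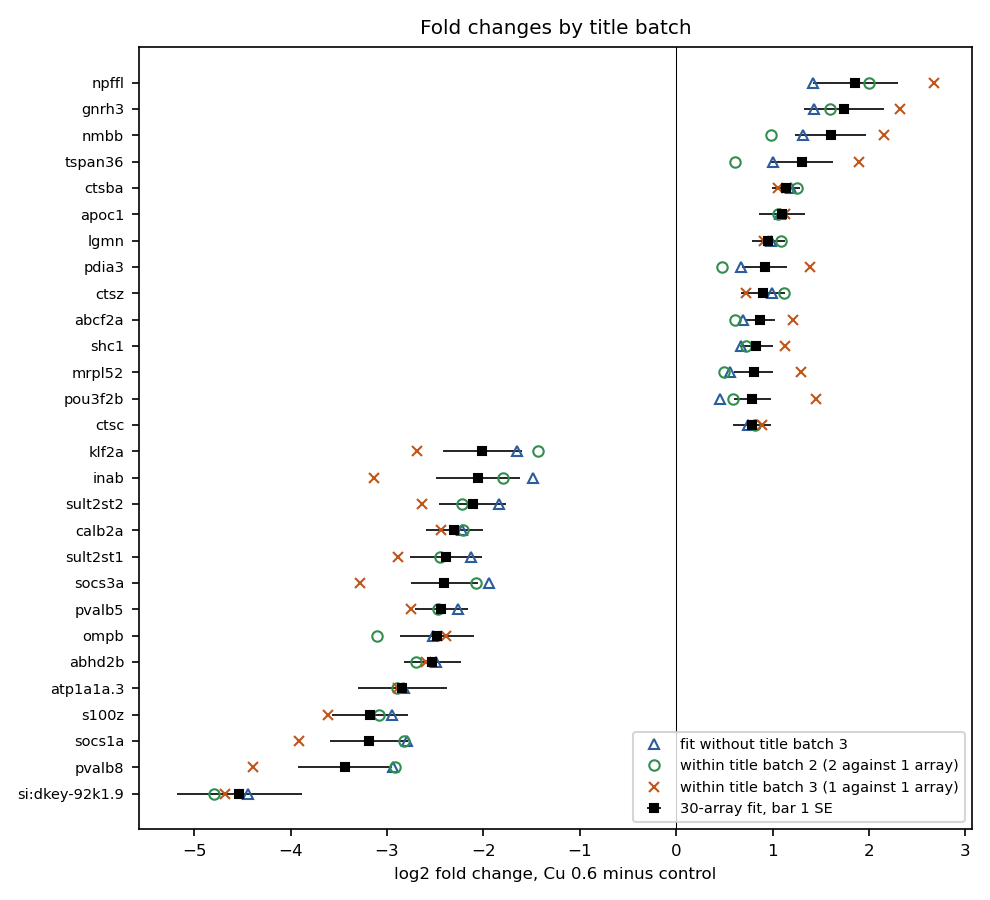
Log2 fold change (x axis) of the 14 largest decreases and 14 largest increases in the fit of 30 arrays (square, bar 1 SE), without title batch 3 (triangle), within title batch 2 (circle, 2 arrays against 1) and within title batch 3 (cross, 1 against 1). The choice of genes fixes the sign within a batch, so only the sizes are to be read. For ctsba the values were 1.14, 1.19, 1.26 and 1.06, and for socs3a they were −2.40, −1.94, −2.08 and −3.28.

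The lower copper concentrations, Cu 0.25 and Cu 0.1 with CPF at 0 and 3 arrays each, place Cu 0.6 in a series. Cu 0.25 had 1 array in each title batch. Cu 0.1 had 1 array in title batch 1 and 2 in title batch 2, so it shared title batch 2 alone with Cu 0.6. Direct tests asked where the highest concentration differed from the lower ones. Against Cu 0.25, 4 of 10531 probe sets passed (0.038%), and 837 had an unadjusted p under 0.05 (7.95%). They were cisha, cishb, zc3h15 and fbl. cisha read 7.99, 7.65 and 7.56 at Cu 0.25, all above the 6.02, 5.69 and 5.997 at Cu 0.6, and was lower at Cu 0.6 by −1.81 ± 0.27 (limma adjusted p = 0.013). cishb, its sister gene, read 6.47, 5.95 and 5.997 at Cu 0.25 against 4.54, 4.96 and 5.09 at Cu 0.6 (−1.27 ± 0.21, limma adjusted p = 0.0218). fbl, the nucleolar methyltransferase fibrillarin, read 7.07, 7.57 and 7.35 at Cu 0.25 against 8.18, 7.77 and 8.41 at Cu 0.6 (0.82 ± 0.14, limma adjusted p = 0.0218), and zc3h15, a zinc finger gene, was higher by 0.61 ± 0.11.

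These calls were fragile: 0 probe sets passed without Cu 0.6 replicate 2, Cu 0.25 replicate 1 or Cu 0.25 replicate 2, 2 without Cu 0.6 replicate 3 or Cu 0.25 replicate 3, and 0 without title batch 3. The changes of cisha and cishb against control were −1.45 and −0.87 at Cu 0.6, 0.36 and 0.40 at Cu 0.25, and −0.02 and 0.17 at Cu 0.1. All of these use the same 3 controls.

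Against Cu 0.1, 16 probe sets passed (0.152%), 7 higher (0.0665%) and 9 lower (0.0855%), and 1203 had an unadjusted p under 0.05 (11.4%). The lower ones with a symbol were si:dkey-92k1.9 (−3.94 ± 0.66), atp1a1a.3 (−2.37 ± 0.47), both probe sets of socs1a (−2.15 and −2.36), ompb (−1.98 ± 0.39), cisha (−1.43 ± 0.28) and pvalb5 (−1.36 ± 0.28). Here ompb read 5.35, 6.13 and 5.16 at Cu 0.1 against 3.56, 3.89 and 3.60 at Cu 0.6, and atp1a1a.3 read 8.86, 9.99 and 9.38 against 6.71, 7.18 and 7.24. Neither gene overlapped. The higher ones were ctsba (0.87 ± 0.15), fbl (0.83 ± 0.14), xrcc5, a DNA repair gene (0.71 ± 0.12), kdelr2b, a receptor that returns proteins to the endoplasmic reticulum (0.68 ± 0.11), and gda, guanine deaminase (0.62 ± 0.12). The sorting nexin gene snx7 (1.17 ± 0.23) and the chromatin gene baz1b (0.59 ± 0.12) also rose. The count was 0 without Cu 0.6 replicate 3 or Cu 0.1 replicate 3, 2 without Cu 0.1 replicate 1, 6 without Cu 0.6 replicate 2, 10 without Cu 0.6 replicate 1, and 1 without title batch 3, and the range of these fits was 0 to 17.

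For all 14 of the largest decreases the mean level at both Cu 0.1 and Cu 0.25 lay between control and Cu 0.6, and in 12 of them the 4 means followed the order of the concentrations. The means here and for the increases are of deposited values, before the batch term. The part of title batch in their order was not tested. s100z had means of 11.60, 10.29, 9.74 and 8.45 from control to Cu 0.6, calb2a 11.02, 9.97, 9.57 and 8.76, and socs1a 9.31, 8.33, 7.78 and 6.11. The exceptions to the order were sult2st2 and inab, whose mean was lower at Cu 0.1 than at Cu 0.25. sult2st2 had means of 10.14, 8.23, 8.46 and 8.14, and Cu 0.6 did not pass against Cu 0.25 (−0.43 ± 0.35, adjusted p = 0.821) or Cu 0.1 (−0.22, adjusted p = 0.881).

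Of the 14 largest increases, 8 followed the order. ctsba had means of 10.42, 10.71, 11.37 and 11.59, and at Cu 0.6 it was 0.19 ± 0.15 above Cu 0.25 (adjusted p = 0.798). For 0 of the 28 genes did Cu 0.6 differ from Cu 0.25 past the threshold, and for 6 it did from Cu 0.1. A p that misses the threshold does not show equal levels: for s100z the 95% interval of the difference between Cu 0.6 and Cu 0.25 ran from −2.13 to −0.51 before adjustment. The order of means in these genes was read after they were chosen at Cu 0.6, so it is a description.

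**Figure D5:**
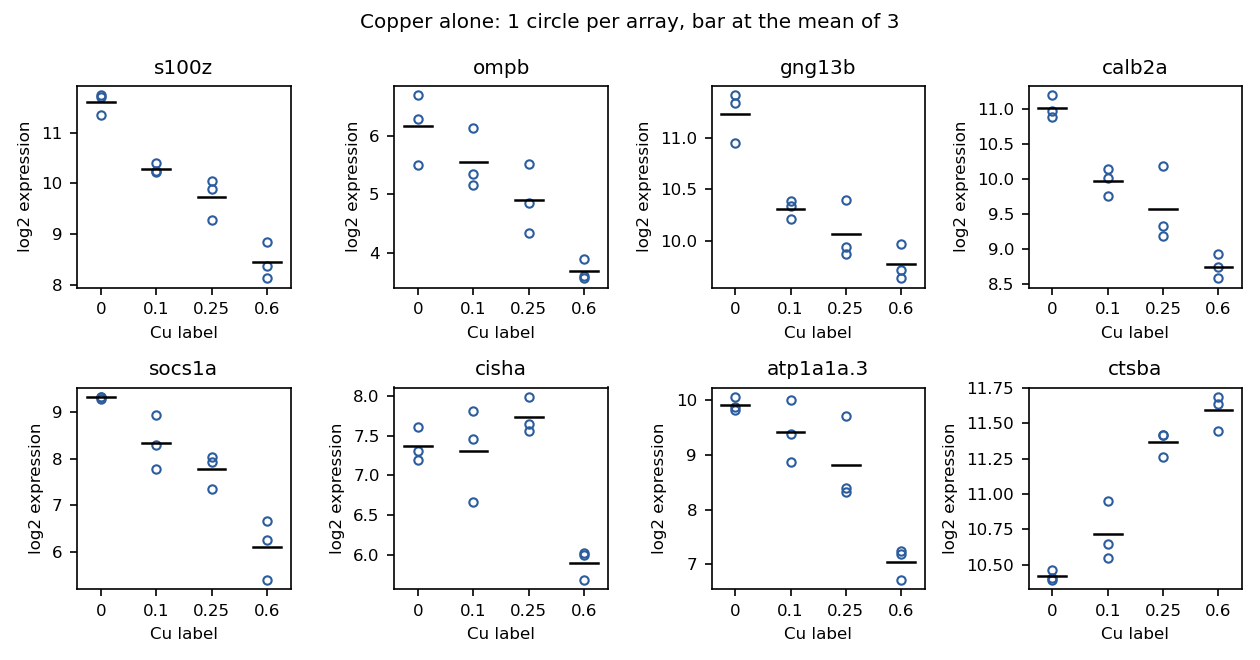
Deposited log2 expression (y axis, 1 circle per array, bar at the mean of 3) of 8 genes at the copper labels 0, 0.1, 0.25 and 0.6 (x axis, not to scale), all with CPF at 0. s100z, ompb, gng13b, calb2a, socs1a and atp1a1a.3 step down through the labels, ctsba steps up, and cisha is lower at 0.6 alone, with a mean of 5.90 beside 7.37, 7.31 and 7.73.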

How the data were processed

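Each sample was hybridized to 1 Affymetrix zebrafish array. GCRMA is named in the submitters' processing notes without a version, and the authors deposited 1 log2 value per probe set and array. The log2 unit was inferred from the range, 1.02 to 15.73. The table had 15617 probe sets. The 115 control probe sets were left out, and the 10531 above 4 in at least 3 of 30 arrays were tested, without further normalization. Detection calls were not used, so the depth of a value is known only as its level, and 3 arrays a group limit the precision.

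The limma package (3.58.1, under R 4.3.3; lmFit and eBayes) fitted all 10 groups together, with a mean per group and title batch as a fixed term (18 residual degrees of freedom). Adjusted p-values are Benjamini-Hochberg over all tested probe sets, with a threshold of 0.05. Deposited values are printed before, and fold changes after, the batch term. A gene is represented by its probe set with the highest mean. Gene symbols came from the platform annotation: 10795 probe sets had 1, 135 had several and were not named, and 4572 had none here. Unused sample columns numbered 0.

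Named genes were the 14 largest changes in each direction with non-overlapping batch-corrected arrays, up to 5 passing members of each of 37 lists, up to 5 in each direction against Cu 0.25 and Cu 0.1, and ompb, gng13b, s100z, slc31a1, ache, heat shock 70 and haemoglobin genes. Other genes named were chosen after their values were seen. The comparison, lists and rule were chosen with earlier results of these data known. Summed levels are log2 of the sum of linear values. Alternatives changed the batch term (none, a random block), the arrays (without title batch 3, title batch 2 or 3 alone, the compared groups alone, each array left out), the filter (none, 6), the scaling (quantile, median), the probe sets (mean of all of a gene) and the variance model (trend with robust prior, array weights). The code was tested on simulated data.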

Additional observations from a re-analysis of the deposited data

How the results depend on the processing

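With title batch 3 left out, the number of probe sets that passed for Cu 0.6 against control fell from 171 to 36. With array weights it was 374, with the compared groups alone 50 (batch term) and 72 (no batch term), and within title batch 2, 11. Leaving out 1 array gave 59 to 135. These fits hold fewer arrays, except that with array weights; beyond that the cause was not tested. The other alternatives gave 154 to 190, and quantile normalization gave 60 higher and 125 lower against 72 and 99. Against Cu 0.25 the count of 4 became 2 with no batch term, a random block, quantile normalization or median centring, 15 and 1 with the groups alone (with and without the batch term), and 0 without title batch 3 or within title batch 2. Leaving out 1 array gave 0 to 3. Against Cu 0.1 the count of 16 became 25 with no batch term or a random block, 6 with no filter, 709 with array weights, 1 without title batch 3, and 0 with the groups alone, with or without the batch term, or within title batch 2. Leaving out 1 array gave 0 to 17.

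Genes that changed sign had not passed. hbbe2 was at −0.010 with the groups alone and a batch term, and at −0.19 to 0.26 over the leave-one-out fits. hspa12a was at −0.10 without title batch 3, −0.17 within title batch 2 and −0.10 to 0.24 over those fits. ache was at −0.036 with the groups alone and a batch term, −0.23 within title batch 2 and −0.056 to 0.39 over those fits. hsp70.3 was at −0.20 with array weights and −0.028 to 1.49 over those fits.

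No paired analysis was possible because the labels give no replicate numbers that tie arrays across groups. Title batch, which is shared by some arrays of both groups, entered as a term instead. In all 6 leave-one-out fits 46 probe sets passed, for 32 genes, and 28 of these also passed without title batch 3, 25 lower and 3 higher. Genes near the lower end of the array's range, the odorant receptors among them, are limited by signal over background.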

Other observations

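The genes in this paragraph lie outside the rule for named genes and were chosen after their values were seen. Among decreases that passed in all 6 leave-one-out fits were atf5a and fstl5. atf5a encodes a transcription factor that in mice takes part in the maturation of olfactory sensory neurons. It read 10.16, 9.72 and 10.37 with copper and 11.51, 11.49 and 12.07 in controls (−1.64 ± 0.26, limma adjusted p = 0.00114). fstl5, which encodes a secreted follistatin-like protein, read 8.98, 9.10 and 9.49 against 10.88, 10.65 and 11.08 (−1.72 ± 0.26, limma adjusted p = 7.86e-04). Neither overlapped, and both passed without title batch 3 (adjusted p = 0.0384 for both). The selenoprotein gene selenot1a fell by 0.99 ± 0.15 (limma adjusted p = 9.99e-04), and 1 of the probe sets of selenow2b fell by 1.22 ± 0.29 while the other was at −0.88 (adjusted p = 0.115), and the call passed in 0 of the 6 leave-one-out fits. fxyd11, which encodes a small regulator of the sodium pump, fell by 1.79 ± 0.41 (limma adjusted p = 0.0264), but passed in 1 of the 6 leave-one-out fits and not without title batch 3 (adjusted p = 0.219). The pump's beta subunit gene atp1b1a fell by 0.74 ± 0.14 on 1 probe set (limma adjusted p = 0.00439) and was at −0.45 on the other (adjusted p = 0.184).

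The following genes were likewise chosen after their values were seen. The probe sets of mycn, a MYC family transcription factor, rose by 0.74 ± 0.18 and 0.66 ± 0.17 (limma adjusted p = 0.0326 and 0.0483). eif4e1c, a cap-binding translation factor, rose by 0.79 ± 0.17 on 1 probe set (limma adjusted p = 0.0205) and was at 0.54 on the other (adjusted p = 0.0952). g3bp1, a core protein of stress granules, rose by 0.71 ± 0.17 (limma adjusted p = 0.0316), and abcf1, an ATP-binding cassette protein of translation initiation, by 0.63 ± 0.12 (limma adjusted p = 0.00474). Of these, abcf1 passed in all 6 leave-one-out fits, and none passed without title batch 3 (adjusted p = 0.0548 for abcf1). Ribosomal protein genes did not pass, at a median of 0.04 over 71. mcm2, a replication licensing gene, read 5.61, 5.06 and 6.71 with copper and 4.53, 4.57 and 4.48 without, and did not pass (1.28 ± 0.37, adjusted p = 0.0833). It had the highest change of the 48 measured cell cycle and DNA replication genes, whose median was 0.18 and of which 0 passed.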
